A study of Homo sapiens with 6 samples.

Results

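The genes described here are 52 interferon-stimulated antiviral genes, read in SKOV3 cells, an established human ovarian cancer line that the labels describe as high-grade serous. The genes were chosen by name, with earlier results of these data known. Each gene was represented by its brightest probe set that names 1 gene, as measured over all arrays. Of the 52, 51 had such a probe set, against 19775 genes in the whole series, and 45 lay above the signal filter that 12206 genes passed. STAT2 was not analysed here, and OAS2, DHX58, MX2, GBP1, RSAD2 and IFI44L lay below the filter. In 3 arrays the cells had carried a miR21 precursor, given at 5 nM, for 24 h. In the other 3 they had carried a negative control precursor for 24 h, at a dose the labels do not settle. Arrays of the 2 groups carry the replicate numbers 1 to 3, and the labels do not say whether these are separate cultures. All cells had been seeded a day before transfection and grown in the same serum-containing medium. Every difference below is thus one precursor against another in 1 cell line, with untransfected cells not analysed here.

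Interferons are secreted proteins that cells release on sensing viral nucleic acid. They bind surface receptors and activate the kinases JAK1 and TYK2, which phosphorylate transcription factors, among them STAT2. With IRF9, STAT2 is part of a complex that binds a short DNA element, the interferon-stimulated response element, in the promoters of many target genes. The products block viral entry, degrade or sense viral RNA, halt translation and tag proteins with the ubiquitin-like ISG15. Tumour cells often express part of this programme without added interferon, so a basal level in cultured cells can be measured.

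The treatment and the promoter element are shown first, because the comparison is of the treatment and many, not all, of the genes hold the core of the element. The mature microRNA made from the MIR21 locus, hsa-miR-21-5p, has 22 bases and lies at chr17:59841273-59841294 on the plus strand (RefSeq, GRCh38.p14). Its seed, bases 2 to 8, is in capitals.
hsa-miR-21-5p: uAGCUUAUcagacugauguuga

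The core of the response element was searched as GAAA, any 2 bases and GAAA again, or as TTTC, any 2 bases and TTTC for the opposite strand, in RefSeq promoter windows of 300 bases that begin before each annotated start and end 50 bases after it. Of the 52 genes, 43 had at least 1 window, and 29 of these (67.4%) held a core, against 1195 of 27305 genes with a window (4.38%) and 3.57% of all 35116 windows. Another element, the gamma activated site (TTCNNNGAA, the same on both strands), was found in 13 of the 43 (30.2%) and in 9.38% of all genes. In 5 members, BST2, EPSTI1, IFI27, IFITM1 and MX1, the 2 kinds of motif overlapped. A match is a run of letters and not a shown binding site. The windows below are 30 bases each, written 5′ to 3′ on the strand of the gene with the core in capitals. Shown for each named gene that has one is the core nearest to the start whose window ends before that start. The GAAA or TTTC letters were fixed by the search, so the likeness of the cores is not a result.
IFIT1: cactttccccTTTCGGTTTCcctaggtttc
DDX60: gaggagaaagGAAACCGAAActcccgccgg
IFIH1: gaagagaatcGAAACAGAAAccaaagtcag
MX1: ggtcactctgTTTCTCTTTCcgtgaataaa
ISG15: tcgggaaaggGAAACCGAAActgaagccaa
HERC5: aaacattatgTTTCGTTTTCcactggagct
BST2: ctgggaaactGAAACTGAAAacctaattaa
PLSCR1: cgggaaccggGAAAAGGAAAccgtgttgtg
PARP9: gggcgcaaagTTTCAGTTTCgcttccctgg
IFI27: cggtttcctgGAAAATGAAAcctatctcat
IFI6: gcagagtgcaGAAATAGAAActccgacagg
SAMD9: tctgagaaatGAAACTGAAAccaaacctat

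The windows lie at these positions and strands in GRCh38.p14: IFIT1 chr10:89392510-89392539 (plus), DDX60 chr4:168318786-168318815 (minus), IFIH1 chr2:162318686-162318715 (minus), MX1 chr21:41431844-41431873 (plus), ISG15 chr1:1013380-1013409 (plus), HERC5 chr4:88457035-88457064 (plus), BST2 chr19:17405735-17405764 (minus), PLSCR1 chr3:146544667-146544696 (minus), PARP9 chr3:122564322-122564351 (minus), IFI27 chr14:94110631-94110660 (plus), IFI6 chr1:27672266-27672295 (minus) and SAMD9 chr7:93118096-93118125 (minus). The core of ISG15 begins 107 bases before its start, that of IFI27 95 bases before and that of IFIH1 21 bases before. For MX1 the distance of 196 bases is to one of its annotated starts, and a second core begins 11 bases after another. The cores of IFIT1, MX1, HERC5 and PARP9 run on the opposite strand. Of the other genes named below, OAS1, ADAR, CMPK2, IRF9, IRF1, SP110, SAMD9L and XAF1 had a window without these letters, and the core of PARP12 begins 10 bases before its start. Several cores were found in 16 of the 29 members, with overlapping matches counted separately. In ISG15, BST2 and TRIM21 the only cores found overlap one another.

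**Figure D1:**
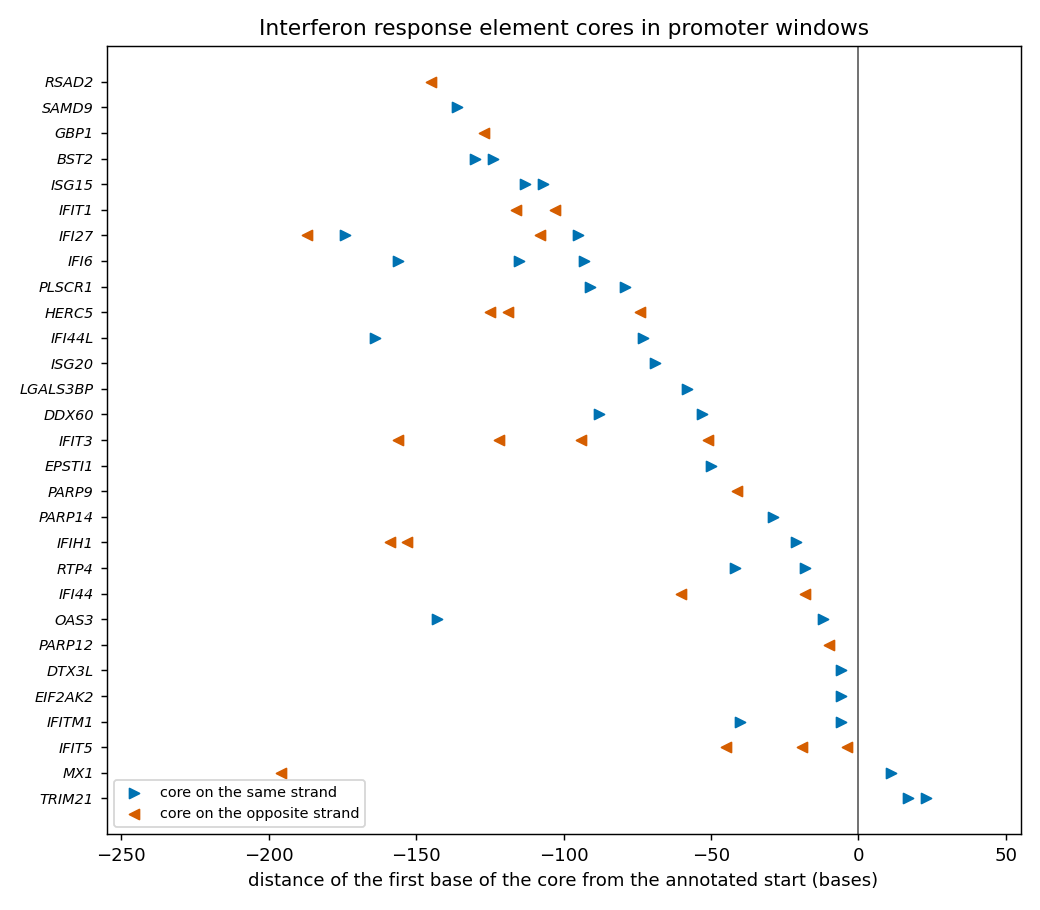
Distance in bases from the annotated start (vertical line, 0) to the first base of each response element core in the 29 members that hold one; triangles pointing right are cores on the strand of the gene, those pointing left on the opposite strand. A gene with several annotated starts has its core drawn once for each. Of the genes shown, TRIM21 has its cores only after the start, and those of MX1 lie 196 bases before one start and 11 after another.

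Across the series, the arrays had been scaled to a common trimmed mean of 500.1, yet the median signal was 125 and 117 on the arrays of number 1 and between 55.2 and 61.8 on the other 4. The arrays of number 1 thus read dim probe sets higher, and dim members are best compared within a number. The 8 markers set for the epithelial cancer line were all above the filter. Above it stood also 2 of 7 fibroblast markers, 1 of 4 endothelial ones and 0 of the 5 immune markers measured, of 7 listed. That endothelial marker gave 483, 44.6 and 53.4 in the control group and 397, 22.3 and 52.0 in the miR21 group. It exceeded the filter's signal of 65.5 only on the arrays of number 1. The summed immune signal was 93.5 to 655 on the control arrays and 66.8 to 447 on the miR21 arrays, highest in number 1 of each group.

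Most of the interferon-stimulated genes were lower with miR21 in replicate numbers 1 and 2 and close to their controls in number 3. The median log2 difference, miR21 minus control, was -0.65 over the 45 members above the filter, with 38 lower and 7 higher. Over all 12206 genes the median was -0.01, and 51.2% were lower. Over all 51 measured members, whatever their signal, the median was again -0.65, and 42 were lower. The lowest was IFI27 (-2.34) and the highest LAMP3 (0.72).

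By limma, 0 of the 45 passed at an adjusted p under 0.05 (0% of all genes did), and the smallest adjusted p among them was 0.9999. At an unadjusted p under 0.05 the same fit held 5 members on the lower side, where 1.26% of all genes lay, and 0 on the higher side (1.18%). With the replicate number as a block, 0 of 45 passed (0.0328% of all genes), and the smallest adjusted p was 0.103, for OAS1. That fit held 26 members, or 57.8%, at an unadjusted p under 0.05 on the lower side, against 10.3% of all genes, and 2 on the higher side, against 9.81%. Groups did not overlap, with miR21 lower, for 6 members (3.27% of all genes): IFIT1, OAS1, MX1, TRIM21, TRIM22 and SAMD9L. No member had all miR21 arrays above all control arrays (3.38% of all genes did).

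By replicate number the members' median differences were -0.90, -1.02 and 0.08 in numbers 1, 2 and 3. In number 1, 22 members were over 1 log2 unit lower (5.88% of all genes) and 0 over 1 unit higher (4.37%). In number 2 the counts were 24 lower (7.51%) and 3 higher (5.04%), the 3 being ISG20, IRF7 and LAMP3. In number 3 only OAS1 of the 45 was over 1 unit lower (1.49%) and 0 were over 1 unit higher (1.76%). Lower in all 3 numbers were 18 of the 45 (20.9% of all genes) and higher in all 3 were 4 (20.3%): LAMP3, IRF7, DTX3L and LGALS3BP.

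Past 1 log2 unit lower in both number 1 and number 2 were 21 members (3.51% of all genes). Of these, 12 (57.1%) were also lower in number 3, near the 62.7% among the 429 genes of the whole series that met the same rule: IFI27, IFIT1, TRIM22, XAF1, IFI6, OAS1, SAMD9L, MX1, DDX60, IFIT2, IRF1 and TRIM21. The other 9, among them SAMD9, IFI44, OAS3 and USP18, were above 0 there. Across the 45 members Pearson's r between the differences in number 1 and in number 2 was 0.90. It was 0.32 for number 1 against 3 and 0.19 for number 2 against 3. Over all 12206 genes the same 3 coefficients were 0.70, 0.16 and 0.08. These are descriptions across genes, which are not independent replicates and share the arrays.

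**Figure D2:**
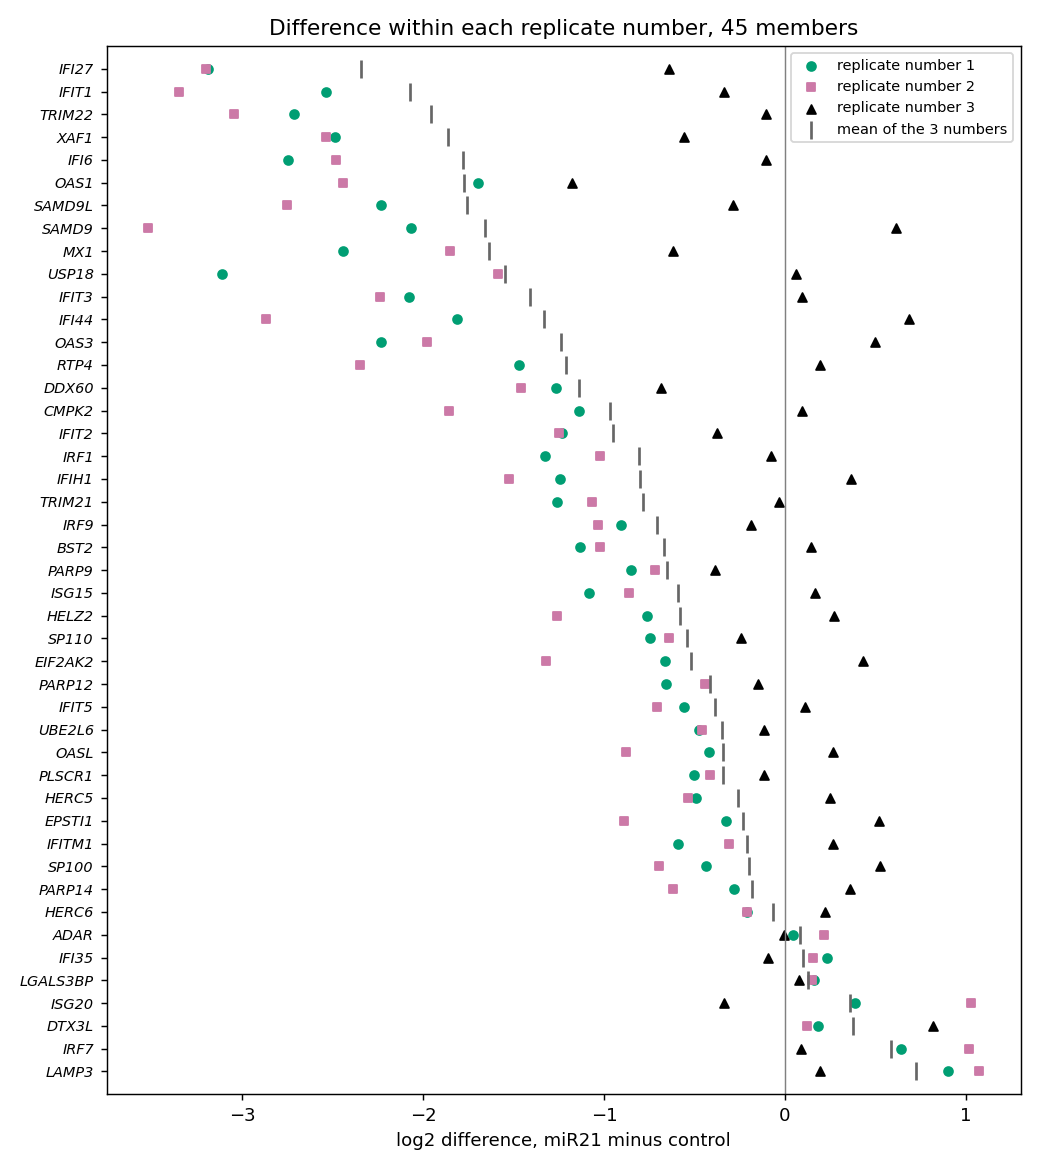
Log2 difference, miR21 minus control, of the 45 members above the filter within replicate number 1 (circles), 2 (squares) and 3 (triangles), ordered by their mean (grey ticks). The points of numbers 1 and 2 lie left of 0 for 38 members and those of number 3 for 21, with IFI27 at -3.19, -3.20 and -0.64.

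The basal level of the genes differed among the control arrays. The median member signal was 1048 and 938 on control arrays 1 and 2 and 466 on control array 3, and it was 498, 594 and 458 on miR21 arrays 1, 2 and 3. Control 3 was the lowest control array for 35 of the 45 members (39.1% of all genes), and 25 stood there over 1 log2 unit lower than the average of controls 1 and 2 (13.7%). Against control 2, control 3 was lower for 44 of 45 members, while 57.4% of all genes were. Only LGALS3BP had its highest control signal there. No shared direction was seen between control 3 and the miR21 arrays. Of the 45 members, 23, 24 and 21 were lower on miR21 arrays 1, 2 and 3 than on control 3. Over all genes the shares lower were 49.52%, 44.47% and 50.04%. The members' median log2 differences from control 3 were -0.12, -0.07 and 0.08. Single members stood well apart in both directions: on control 3 SAMD9 was far above miR21 arrays 1 and 2, and IFITM1 far below them.

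The miR21 array of number 3 in turn was lower than control 1 for 35 of 45 members (median log2 difference -0.97) and lower than control 2 for 43 (median -0.93). Over all genes those shares were 50.8% and 56.7%. Against the other miR21 arrays it was lower for 22 members (array 1) and 23 members (array 2), with medians of 0.00 and -0.02, but single members stood well above them there, among them IFIT1, SAMD9L and SAMD9. The cause of the low level on control 3 was not tested. Without control 3 the median difference of the members was -0.97, and without control 2 it was -0.36, both with 0 members past limma. A lower level in every cell and a smaller share of expressing cells cannot be told apart in these bulk samples.

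**Figure D3:**
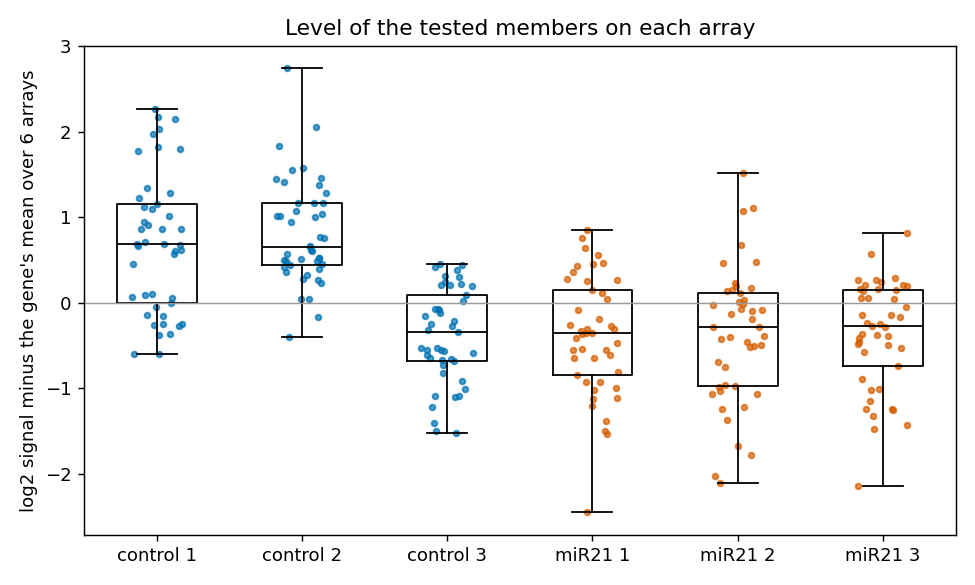
Log2 signal of each of the 45 members on each array minus that gene's mean over the 6 arrays; points are genes, boxes span the quartiles with the median as a line, and whiskers reach the lowest and highest gene. Control arrays 1 and 2 lie mostly above 0, while control array 3 and the 3 miR21 arrays have medians below 0.

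Limma with the block but without both arrays of number 3 called 35 members lower and 3 higher, among 16.9% and 15.9% of all genes in those directions. It left 7 members uncalled. Each gene then has only 2 pairs and 1 residual degree of freedom, so the counts lean on the spread borrowed across genes. Without both arrays of number 1 it called 1 member lower, IFI27 (0.188% of all genes lower), and without both of number 2 it called 0, with 10 members at an unadjusted p under 0.05, 10 lower (3.5% of all genes) and 0 higher (3.92%). With array weights and no block, 26 members lay at an unadjusted p under 0.05 on the lower side (8.64% of all genes) and 0 on the higher side (6.05%).

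The first role is that of proteins that bind viral RNA or act on it. Of the 10 tested, 8 were lower, with a median of -0.74, and 0 passed limma. IFIT1, which binds RNA whose cap lacks ribose methylation and blocks its translation, gave signals of 631, 839.9 and 368 in the control group and 109, 82.5 and 291 in the miR21 group. All miR21 arrays lay below all control arrays, with the gap smallest in number 3. The log2 difference was -2.07 (SE 0.56; with the block, SE 0.52 and adjusted p = 0.130), a signal 4.21-fold lower. OAS1, a synthetase that makes the messenger activating RNase L, had signals of 334, 341 and 125 in the control group and 103, 62.7 and 55.4 in the miR21 group. It was lower in each number (log2 differences of -1.70, -2.44 and -1.17 in numbers 1, 2 and 3) and was the member above the filter with the lowest difference in number 3. Over all arrays it differed by -1.77 (SE 0.56, and with the block SE 0.34 and adjusted p = 0.103), and its other probe set above the filter by -1.85.

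ADAR, the adenosine deaminase that edits double-stranded RNA and has a constitutive promoter besides the inducible one, gave 5271, 9588 and 9209.8 with the control and 5439, 11156 and 9163 with miR21. Its groups overlapped throughout, and the difference was 0.09 (SE 0.38), with the sign turned when control array 1 (-0.19) or miR21 array 2 (-0.13) was left out. Relatives of IFIT1 were also lower in numbers 1 and 2: IFIT3 differed by -2.08, -2.24 and 0.09 in numbers 1, 2 and 3 and IFIT5 by -0.56, -0.71 and 0.11. For IFIT2 the values were -1.23, -1.25 and -0.38, but another probe set differed by 0.12 over all arrays. OAS3, a larger synthetase of the same family, gave 2112, 821 and 325 with the control and 449.7, 208 and 458 with miR21, lower in numbers 1 and 2 and higher in number 3. EIF2AK2, the kinase PKR that halts translation, differed by -0.66, -1.32 and 0.43. Over all arrays, other probe sets above the filter gave -0.89 for IFIT3, -0.74 for OAS3 and -0.15 for EIF2AK2. The probe sets used gave -1.41, -1.24 and -0.52. ISG20, an exonuclease, had, like ADAR, a positive mean (0.36), but another probe set above the filter gave -0.03. OASL, a catalytically inactive relative of OAS1, stood at -0.34 with another probe set at 0.14. OAS2, below the filter, gave 172, 64.3 and 15.7 with the control and 167, 17.3 and 25.8 with miR21.

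Among the cytoplasmic RNA sensors, DDX60 and IFIH1 were above the filter. DDX60, a helicase that aids RIG-I-like receptors, gave 783, 226 and 130.3 in the control group and 326, 82.5 and 81.1 in the miR21 group. It was lower in each number (-1.27, -1.46 and -0.68), although array levels of number 1 stood above the rest in both groups. IFIH1, the sensor MDA5 for long double-stranded RNA, had signals of 234, 194 and 44.5 in the control group and 98.7, 67.2 and 57.3 in the miR21 group. Here control array 3 was the lowest of all 6, and the differences were -1.25, -1.53 and 0.36. DHX58, the regulator LGP2, lay near the bottom of the scale at 11.9, 13.0 and 4.65 with the control and 9.13, 10.3 and 31.4 with miR21.

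The dynamin-like GTPases trap viral particles and nucleocapsids. MX1 was the only one above the filter, at 234, 342 and 133 in the control group and 43.1, 94.6 and 86.5 in the miR21 group. All miR21 arrays lay below the control arrays, with differences of -2.44, -1.85 and -0.62. Over all arrays the signal was 3.11-fold lower (SE of the log2 difference 0.56, and with the block SE 0.40 and adjusted p = 0.128). GBP1, a guanylate-binding protein below the filter, gave 226, 62.5 and 35.2 with the control and 66.6, 26.4 and 52.6 with miR21, lower in numbers 1 and 2. MX2, also below it, spanned 42.6-fold among the control arrays alone, and its difference of 0.18 is not readable.

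In the ISG15 system all 5 members were lower on average, with a median of -0.35, and 4 of them were above 0 in number 3. ISG15, the ubiquitin-like modifier itself, gave 1349, 2659 and 1120.2 in the control group and 637, 1465 and 1255 in the miR21 group. The miR21 array was lower in numbers 1 and 2 (-1.08, -0.86 and 0.16), and the groups overlapped. USP18, the protease that removes ISG15 and also dampens receptor signalling, had 268, 463 and 196 with the control and 31.1, 155 and 204 with miR21. Its miR21 array 1 stood far below all others, and number 3 was near 0 (-3.11, -1.58 and 0.06). HERC5, the ligase that attaches ISG15 in human cells, gave 3544, 5601 and 3981 with the control and 2519, 3865 and 4729 with miR21, a difference of -0.26 (SE 0.34). Its relative HERC6 differed by -0.07, and UBE2L6, the conjugating enzyme, by -0.47, -0.46 and -0.11. So the enzymes that attach ISG15 differed less than ISG15 or USP18 in numbers 1 and 2, a comparison of values with no test.

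Of the nucleotide enzymes, CMPK2, a mitochondrial nucleotide kinase, gave 428, 526 and 156 in the control group and 194, 145 and 167 in the miR21 group. The control arrays 1 and 2 stood above the other 4 arrays, all of which lay between 145 and 194. RSAD2, or viperin, its neighbour on chromosome 2, makes a chain-terminating nucleotide and lay below the filter, at 217, 122 and 15.8 with the control and 64.1, 7.04 and 39.2 with miR21. It had the same order in numbers 1 and 2 and the opposite one in number 3 (-1.76, -4.12 and 1.31).

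Membrane and secreted proteins differed in both directions, with 4 of 6 members lower, 2 higher and a median of -0.28. BST2, or tetherin, which holds budding virus at the cell surface, gave 2636, 6564 and 4567 in the control group and 1201, 3230.4 and 5057 in the miR21 group. Its miR21 array was lower in numbers 1 and 2 and slightly above its control in number 3 (-1.13, -1.02 and 0.15). PLSCR1, a membrane protein that also enters the nucleus, had signals of 5898, 8185 and 4970.5 with the control and 4162, 6141 and 4586 with miR21. It was lower in each number by a small amount (-0.50, -0.41 and -0.12), and another probe set above the filter gave -0.79. The mean of its 3 probe sets was 0.30, since one below the filter gave 2.04. LAMP3, a lysosomal membrane protein, went the other way with 267, 283 and 129.7 in the control group and 498, 595 and 149 in the miR21 group. It was higher in each number (0.90, 1.07 and 0.20), 1.65-fold over all arrays, and did not pass (block adjusted p = 0.197). IFITM1, which blocks fusion of viral and cell membranes, had a control array 3 at 985 against 5047 and 4454, with a difference of -0.21. The chaperone RTP4 differed by -1.47, -2.35 and 0.19, and the secreted galectin ligand LGALS3BP by 0.16, 0.15 and 0.08.

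Of the 4 tested transcription regulators of the response, 3 were lower and IRF7 was higher, with a median of -0.65. IRF9, the DNA-binding subunit of the interferon-activated complex, gave 1347, 1847 and 466 in the control group and 720.3, 902 and 409 in the miR21 group. It was lower in each number (-0.90, -1.03 and -0.19), while control array 3 stood below miR21 arrays 1 and 2. IRF1, a factor that is itself induced by interferon and drives further targets, had 1905, 1338 and 756 with the control and 760.1, 659 and 718 with miR21. Its 3 miR21 arrays lay within a narrow range (log2 SD 0.10, n = 3) and control array 3 met that range; the difference was -0.81 (SE 0.38), and -0.99 by another probe set. IRF7, the factor that amplifies interferon production, was higher in each number (0.64, 1.02 and 0.09), with 539, 725 and 477 with the control and 842, 1469.6 and 508 with miR21. HELZ2, a helicase coactivator, differed by -0.76, -1.26 and 0.27.

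All 4 tested members of the TRIM and SP100 families were lower on average, with a median of -0.66. TRIM22, a ubiquitin ligase with antiviral activity, gave 1263, 566 and 231 in the control group and 192, 68.7 and 216 in the miR21 group. The groups did not overlap, but control array 3 and the miR21 arrays of numbers 1 and 3 lay close together. Its difference was -1.95 (SE 0.71; with the block, SE 0.53 and adjusted p = 0.143), a signal 3.87-fold lower. SP110, a nuclear body protein, had 955, 1925 and 1395 with the control and 571, 1234 and 1181 with miR21, lower in each number (-0.74, -0.64 and -0.24), and the mean of its 5 probe sets gave -0.33. TRIM21, an intracellular antibody receptor, differed by -1.26, -1.07 and -0.03. SP100, the defining nuclear body antigen, differed by -0.44, -0.70 and 0.53.

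Of the PARP genes and DTX3L, 3 of 4 were lower, with a median of -0.30. PARP9 and DTX3L share a promoter. They encode an ADP-ribosyltransferase family protein and the ubiquitin ligase bound to it, and are transcribed away from each other on chromosome 3. The single response element core found in both windows is the same site, chr3:122564332-122564341 in GRCh38.p14. PARP9 gave 952, 1367 and 1299.5 in the control group and 528, 831 and 992 in the miR21 group. Its miR21 array was lower in each number (-0.85, -0.72 and -0.39), and the groups met only where miR21 array 3 passed control array 1. Over all arrays PARP9 differed by -0.65, and by -0.24 by another probe set above the filter. DTX3L differed by 0.18, 0.12 and 0.82, with 1483, 818 and 707 with the control and 1684, 891 and 1246 with miR21. It was thus higher in each number where PARP9, by its brightest probe set, was lower, and neither passed limma. The difference between the genes was not tested. PARP12, another ADP-ribosyltransferase, had 1668, 2535 and 2305 with the control and 1058, 1868 and 2078 with miR21 and was lower in each number (-0.66, -0.44 and -0.15). PARP14 differed by -0.28, -0.62 and 0.36.

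Of the IFI genes and EPSTI1, 4 of 5 tested were lower, with a median of -1.33. IFI27, a mitochondrial and nuclear membrane protein, gave 3116, 4342 and 229.9 in the control group and 342, 472 and 148 in the miR21 group. It had the lowest mean difference of all tested members. Control arrays 1 and 2 stood far above the other 4, and control array 3 lay within the miR21 range. Its control arrays differed by up to 18.9-fold, and the miR21 array was lower in each number (-3.19, -3.20 and -0.64). Over all arrays the log2 difference was -2.34 (SE 1.07; with the block, SE 0.47 and adjusted p = 0.110). IFI6, an inhibitor of apoptosis and of flavivirus replication, showed the same layout with 3967, 4662 and 484 in the control group and 591, 835 and 449.6 in the miR21 group. Its numbers 1 and 2 differed by over 2 log2 units and number 3 by little (-2.75, -2.48 and -0.11). IFI44 differed by -1.81, -2.87 and 0.69, and IFI44L, its neighbour below the filter, by -1.51, -1.35 and -2.83. EPSTI1 was at -0.33, -0.89 and 0.52. IFI35, which binds the related protein NMI, was near 0 in each number (0.23, 0.15 and -0.09).

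SAMD9 and SAMD9L, neighbours on chromosome 7 that restrain poxviruses and cell growth, were both lower on average, and with XAF1 had a median of -1.76. SAMD9L gave 1048, 1016 and 653 in the control group and 223, 151 and 535 in the miR21 group, without overlap of the groups. Its differences were -2.23, -2.75 and -0.29 and the mean -1.76 (SE 0.50; block adjusted p = 0.128); another probe set above the filter gave -1.37, one below it 0.64, and the mean of all 3 gave -0.83. SAMD9 had 1079.6, 1581 and 679.8 with the control and 258, 138 and 1039.5 with miR21. Its miR21 array 3 lay above its own control and near control array 1, so the direction turned in number 3 (-2.07, -3.52 and 0.61). Over all arrays SAMD9 differed by -1.66, by -0.70 in another probe set above the filter and by -1.18 in the mean of its probe sets. XAF1, an antagonist of the inhibitor of apoptosis XIAP, gave 603, 397 and 71.9 in the control group and 108, 68.6 and 48.8 in the miR21 group. It was lower in each number (-2.49, -2.53 and -0.56), with control array 3 within the range of the miR21 arrays and 8.39-fold below the highest control. The mean over its 3 probe sets, 1 of them below the filter, gave -1.18 in place of -1.86.

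**Figure D4:**
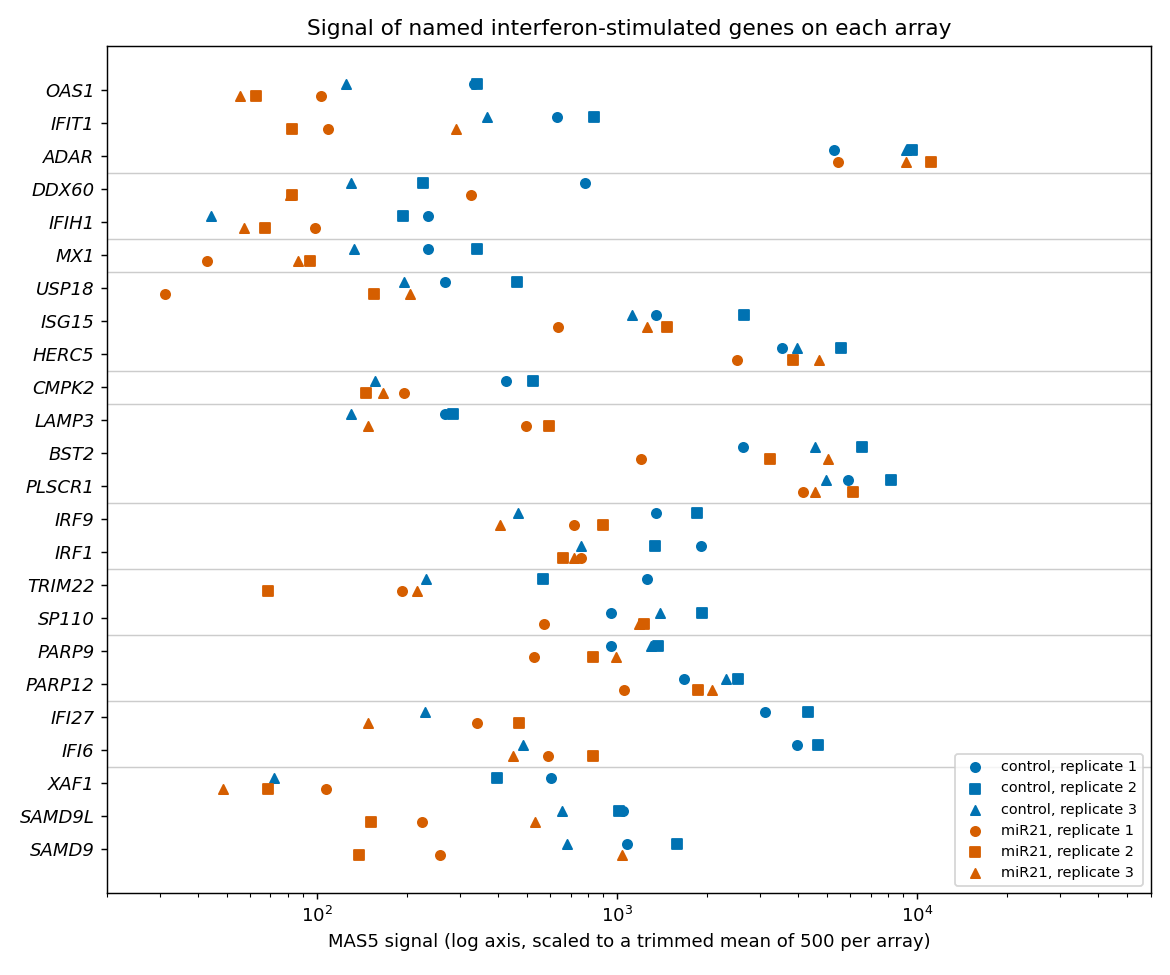
Signal of the 24 named members on each array (log axis), control arrays in blue and miR21 arrays in orange, with circles, squares and triangles for replicate numbers 1, 2 and 3; grey lines separate the roles. IFI27 and IFI6 show control arrays 1 and 2 far to the right of the other 4 arrays, and IFIT1, OAS1, MX1, TRIM22 and SAMD9L show no overlap between the groups.

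Members with and without the response element core differed little in value. The 26 tested members with a core had a median of -0.66, with 23 lower. The 13 with a window but no core had a median of -0.58, with 11 lower. OAS1, SAMD9L and XAF1 stood among the latter. No difference between these groups was tested.

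Other genes of the pathway, from lists of 83 genes, stood nearer to 0. Of 59 above the filter, 0 passed limma with or without the block, and their median was -0.26, with 40 lower and 19 higher. At an unadjusted p under 0.05 with the block, 13 were lower (22.0%, against 10.3% of all genes) and 3 higher (5.08%, against 9.81%). Interferon genes themselves were dim. Of 13 listed, 12 had a probe set and 1 was above the filter, IFNE, an epithelial type I interferon, at 253, 213 and 71.9 in the control group and 85.4, 37.3 and 139.9 in the miR21 group. It was lower in numbers 1 and 2 and higher in number 3 (-1.57, -2.51 and 0.96). IFNB1, the interferon made first by most infected cells, gave signals between 0.85 and 18.9 over the 6 arrays, against a filter at 65.5. Such dim values do not show whether the transcript was present.

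The 8 receptor and kinase genes above the filter had a median of -0.19, 6 lower and 2 higher. IFNGR1, the ligand-binding chain of the interferon gamma receptor, gave 3856, 3747 and 2624 in the control group and 2347, 2259 and 2591 in the miR21 group, without overlap of the groups and with differences of -0.72, -0.73 and -0.02. JAK2, its kinase, differed by -0.54, -0.74 and -0.46. The type I receptor chains IFNAR1 and IFNAR2 differed by -0.23 and -0.20. JAK1 stood at 0.08 and TYK2 at -0.06.

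The 12 genes of viral sensing and interferon induction had a median of 0.0030, with 6 lower and 6 higher. IRF3, the factor that switches on IFNB1, was 1553, 1654 and 1393 with the control and 2307, 2435 and 1557 with miR21, higher in each number (0.57, 0.56 and 0.16; block adjusted p = 0.193). TRIM25, the ligase that activates RIG-I, differed by 0.72, 0.90 and -0.17. The sensors RIGI and TLR3, which interferon also induces, differed by -0.89, -0.77 and 0.30 and -1.38, -1.56 and 0.48. Their layout resembles that of IFIH1 in sign: lower in numbers 1 and 2 and higher in number 3.

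The 11 negative regulators had a median of -0.33, 7 lower and 4 higher. SOCS3, a feedback inhibitor of JAK kinases, gave 188, 169 and 97.6 in the control group and 89.5, 49.8 and 72.6 in the miR21 group, without overlap of the groups, with a difference of -1.09 (SE 0.51; block adjusted p = 0.186). PIAS3, an inhibitor of STAT proteins, was lower in each number (-0.77, -0.51 and -0.04). SOCS1, a relative of SOCS3, was at -0.04.

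The 27 other interferon-stimulated genes had a median of -0.47, with 20 lower and 7 higher. APOL1, a secreted and intracellular apolipoprotein, gave 1754, 2105 and 1763 in the control group and 479.5, 701 and 1418 in the miR21 group, with no overlap and a difference of -1.26 (SE 0.42; block adjusted p = 0.124). SLFN5, a Schlafen family gene, went the other way with 852, 762 and 228 in the control group and 2854, 1853 and 325 in the miR21 group, higher in each number (1.74, 1.28 and 0.51). IFITM2 and IFITM3, close relatives of IFITM1, differed by 0.00 and -0.02, and their sequences are alike enough that probes may read more than 1 of the family.

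**Figure D5:**
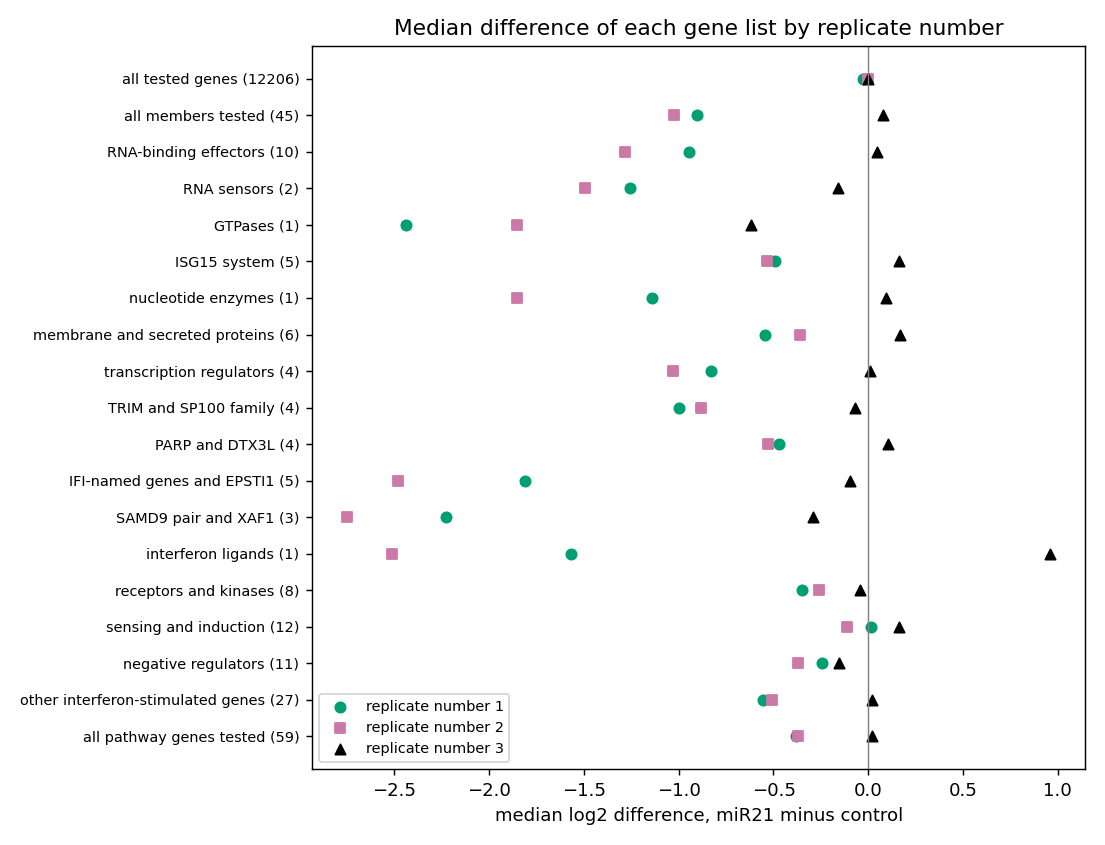
Median log2 difference, miR21 minus control, within replicate number 1 (circles), 2 (squares) and 3 (triangles) for each role of the members, each list of other pathway genes and all tested genes; the number of genes is in parentheses, and lists of 1 gene show that gene. The members sit at -0.90, -1.02 and 0.08 and the other pathway genes at -0.38, -0.37 and 0.02.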

How the data were processed

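Biotinylated cRNA was made from total RNA, per the labels' protocols, and read on U133 Plus 2.0 arrays. The deposited values are linear intensity signals made with MAS5, per the submitters' processing notes; the version is not given in the sources used here. Every array has the same trimmed mean, and such scaling hides a shift shared by most genes, and dim signals are noisy on the log scale. Of 54675 probe sets, 41091 name 1 gene. The filter kept genes whose mean log2 signal exceeded 6.03 (a signal of 65.5), the median over probe sets. Differences were fitted on log2 signals with limma 3.58.1 in R 4.3.3 (variance trend, Benjamini-Hochberg over 12206 genes, threshold 0.05), and the steps were tested on simulated data. As no label names separate cultures, p-values reflect only how far these samples scatter, which may be technical.

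Members, lists and tests were chosen with earlier results of these data known. Named are, per role, the 2 members of smallest p with the block and the brightest control, and 2 genes per pathway list. The other members are named to account for all, and further pathway genes were added after their values were seen. Alternatives covered scaling, filter, probe set, weights, block and arrays left out. Same-numbered arrays, numbered in the sample titles, deviated together from their group means (correlations 0.899, 0.638 and 0.635), so the block is printed; numbers 2 and 3 crossed would have passed too (0.283 and 0.411). Apart from picking the brightest probe set per gene and the brightest control per role, no ranking of signals across probe sets is given. Promoter and microRNA sequences are from RefSeq, GRCh38.p14.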

Additional observations from a re-analysis of the deposited data

How the results depend on the processing

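Over all genes, limma called 0 genes in the planned fit (298 at an unadjusted p under 0.05) and 4 with the replicate block. With the replicate block and without both arrays of number 1, it called 59 of 12206 genes, 1 of them a member. Without both arrays of number 3 it called 4004 of 12206 (16.9% lower and 15.9% higher), 38 of them members. Of the 59 other pathway genes tested, 29 passed without number 3, 24 of them lower. The cause was not tested beyond the values by number; these fits have 1 residual degree of freedom. Quantile normalization, centring on the median, log2 of the signal plus 16, other filters, no variance trend, array weights and other probe set rules gave 0 calls. Array weights raised the members at an unadjusted p under 0.05 from 5 to 26, all lower, and all genes from 298 to 1793 (8.64% lower). The members' median lay between -0.91 and -0.42 under these settings (upper quartile filter, 27 members, at the small end), and between -0.97 and -0.36 when 1 array was left out, which gave 0 calls for all genes, for members and for pathway genes. Of 446 values of named members under alternatives, 419 kept direction and side of the threshold, 24 passed it without a number, and 3 turned sign: PLSCR1 with the mean of probe sets (0.30, from a probe set below the filter) and ADAR without control replicate 1 (-0.19) or miR21 replicate 2 (-0.13), in a range of -0.19 to 0.38 over single arrays left out. Many of the 419 could not have turned sign. With the replicate block on all arrays, other filters or no variance trend, a gene's difference stays the same, and only its p-value can change. The probe set brightest in controls also gave the named members the same differences, as did the mean of probe sets where a gene has only 1. The 419 is thus not a measure of how stable the directions are. The 3 arrays per group limit precision, and dim probe sets most.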

Other observations

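Some genes of the pathway lists outside the naming rule had large values and were chosen after these were seen. GBP3, a guanylate-binding protein gene, gave 1498, 942 and 321 in the control group and 426, 221 and 325 in the miR21 group, with differences of -1.81, -2.09 and 0.02 in numbers 1, 2 and 3. It had the layout of IFI27: control arrays 1 and 2 above the other 4. IDO1, which degrades tryptophan and is a marker of interferon gamma response, gave 5179, 8773 and 3090.1 in the control group and 1144, 2052 and 3374 in the miR21 group, with differences of -2.18, -2.10 and 0.13. RBCK1, a subunit of the linear ubiquitin ligase, was higher in numbers 1 and 2, with 4251, 7195 and 5696 with the control and 15971, 21201 and 5896 with miR21. None of the 3 passed limma with or without the block.

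Chemokine genes of the response lay below the filter. CXCL10 gave 181, 111 and 35.3 with the control and 76.0, 26.8 and 12.8 with miR21, lower in each number (-1.25, -2.05 and -1.47), and CCL5 96.8, 56.9 and 39.7 with the control and 31.4, 6.29 and 44.3 with miR21, lower in numbers 1 and 2. CXCL10 exceeded the filter's signal of 65.5 on control arrays 1 and 2 and on miR21 array 1, and CCL5 on control array 1 only. Such dim signals are noisy on the log scale, and these carry no test.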
